A study of Homo sapiens with 10 samples.

Results

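DHRS2 and 8 related genes, DHRS1, DHRS3, DHRS4, DHRS4L2, DHRS7, DHRS11, DHRS12 and DHRS13, are described here in HAP1 cells. HAP1 is a human cell line of leukaemic origin that carries a nearly haploid genome. The genes are 9 of the 59453 genes in the count tables and were taken by name, because DHRS2 had a high level in the double knockout and after H2O2 in these same libraries. That contrast is therefore what chose DHRS2, so its values are given as a description with no test, whereas the other 8 genes were tested in the fit across all genes. All 9 genes were listed in both tables, and all 9 passed the filter on low counts in both fits.

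RNA-seq was done on untreated HAP1 cells that were wild type (WT, clones 2 and 11), lacked the DNA glycosylase MUTYH (clones 7 and 8), lacked the DNA glycosylase OGG1 (clones 1 and 22) or lacked both (DKO, clones 4 and 14), and on WT clones 2 and 11 harvested 24 h after exposure to 100 µM H2O2. OGG1 excises 8-oxoguanine, the most common oxidised form of guanine, from DNA, and MUTYH removes adenine that was paired with it. The knockouts were made by CRISPR-Cas9 editing, and both DKO clones were derived from the same OGG1 knockout line. Each group thus held 2 clones with 1 library each, for 10 libraries in all, so that a spread within a group is a spread between clones.

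Short-chain dehydrogenases/reductases (SDRs) are a large enzyme family that uses NAD(H) or NADP(H) to oxidise alcohols or reduce carbonyl groups of steroids, retinoids, lipids and xenobiotics. The DHRS genes encode SDRs of this kind. DHRS2, also known as Hep27, is a carbonyl reductase that has been described to bind MDM2, a ubiquitin ligase, and to be a target of the transcription factor MYB. DHRS3 reduces retinaldehyde to retinol and so limits the synthesis of retinoic acid, and DHRS4 is a peroxisomal carbonyl and retinaldehyde reductase.

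In GENCODE v44 on GRCh38, 5 of the genes lie on chromosome 14. DHRS2 spans chr14:23630115-23645639 on the plus strand, DHRS4 spans chr14:23953734-23969279 and DHRS4L2 spans chr14:23969874-24006408 on the same strand, DHRS1 spans chr14:24290598-24299780 on the minus strand and DHRS7 spans chr14:60144119-60169856 on the minus strand. DHRS3 lies at chr1:12567910-12618210 (minus), DHRS12 at chr13:51767993-51804163 (minus), DHRS11 at chr17:36591879-36600804 (plus) and DHRS13 at chr17:28897781-28903079 (minus). No exon of DHRS2 or DHRS11 overlapped another annotated gene. Exons of DHRS13 were covered to 41.4% by a gene on the opposite strand, those of DHRS7 to 27.5%, those of DHRS4L2 to 11.7% and those of DHRS4 to 11.2%, the last 2 by DHRS4-AS1. The strand setting of the counting is not given in the sources used here, so reads of these genes and of their antisense partners cannot be told apart. On the same strand, exons of DHRS12 were covered to 18.4% and those of DHRS4L2 to 16.3% by another annotated gene. No strand setting would separate these.

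The start of DHRS2 stood apart from those of the other genes in base composition. The 250 bases upstream of the start are shown for DHRS2, whose level ranged most widely over the libraries (12.7-fold from lowest to highest), and for DHRS11, whose level ranged least (1.20-fold). Sequences are from RefSeq on GRCh38.p14, at chr14:23629865-23630114 (plus strand) and chr17:36591629-36591878 (plus strand), and run 5′ to 3′ up to the base before the start. Capitals mark the TATA box motif TATAAA in DHRS2 and the GC box motif GGGCGG in DHRS11.

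DHRS2: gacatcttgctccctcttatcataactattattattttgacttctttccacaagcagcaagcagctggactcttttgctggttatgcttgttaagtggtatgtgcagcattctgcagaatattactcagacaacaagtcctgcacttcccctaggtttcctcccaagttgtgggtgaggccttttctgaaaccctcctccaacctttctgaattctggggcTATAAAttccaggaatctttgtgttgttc

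DHRS11: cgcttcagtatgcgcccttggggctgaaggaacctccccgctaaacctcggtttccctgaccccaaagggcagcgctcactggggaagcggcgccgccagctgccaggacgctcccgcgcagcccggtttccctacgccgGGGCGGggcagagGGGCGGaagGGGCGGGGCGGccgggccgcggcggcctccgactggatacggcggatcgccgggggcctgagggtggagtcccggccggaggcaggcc

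The DHRS2 window had a GC content of 43.2% and held 0 CpG dinucleotides, whereas the DHRS11 window had a GC content of 74.8% and held 29. Over all 34943 RefSeq upstream windows of this length the median was 58% GC and 11 CpG, and 6.08% of windows held no CpG. TATAAA occurred in the DHRS2 window with its first base at position -29, counted back from the start. Upstream windows were listed for 8 of the 9 genes, 15 windows in all because DHRS1, DHRS3, DHRS4L2 and DHRS12 have several starts, and none was listed for DHRS7. The other 14 windows held 3 to 34 CpG at a GC content of 54.8% to 75.6%, and 0 of them held TATAAA, which was present in 10.8% of all windows. GGGCGG was found in 10 of these 14 windows, in none of DHRS2 and in 42.5% of all windows. Both strands were searched, and 2 of the 4 matches in DHRS11 overlap by 1 base. The motifs CCAAT (32% of all windows), TGANTCA (6.59%), TGATGNAA (3.15%) and TGACNNNGC (10.9%) had no match in the DHRS2 window. A match is a description of the letters in this window and not evidence of binding.

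**Figure D1:**
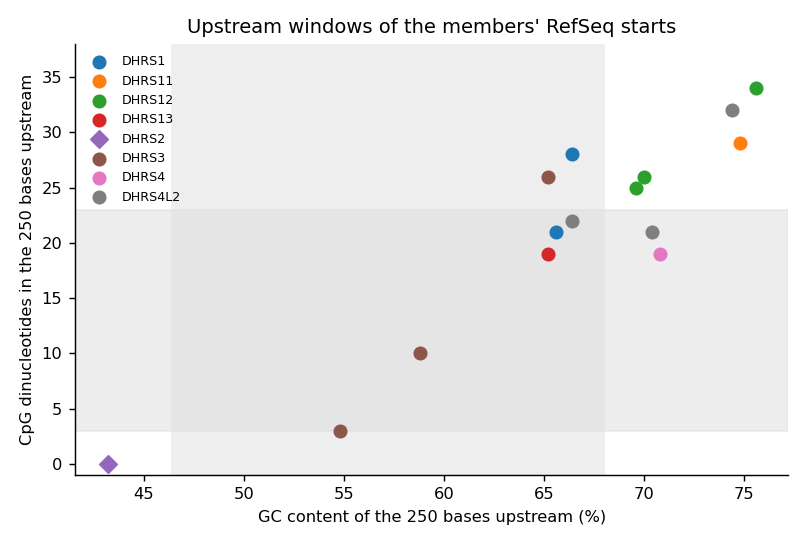
Composition of the 250 bases upstream of the RefSeq starts of 8 genes, with GC content (%) on the x axis and the number of CpG dinucleotides on the y axis, each point being 1 start. Grey bands span the lower to upper quartile of all 34943 windows (46.4% to 68% GC, 3 to 23 CpG), and DHRS2 (diamond) is the point at 43.2% GC and 0 CpG, below and to the left of all others.

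DHRS2 was low in untreated WT cells and high in DKO cells and in H2O2-treated WT cells. Levels are given as library-size normalised counts (CPM, with factors from the trimmed mean of M values), of which 1 CPM equals about 22.2 reads in the smallest library. DHRS2 had 31 reads in WT clone 2 and 38 in WT clone 11, which are 1.38 and 1.68 CPM. MUTYH knockout clones 7 and 8 had 86 and 51 reads (3.97 and 2.26 CPM), and OGG1 knockout clones 1 and 22 had 46 and 40 reads (2.08 and 1.78 CPM). DKO clones 4 and 14 had 304 and 257 reads (13.6 and 11.3 CPM). Both DKO clones were above every other untreated library, with the lower DKO clone 2.85-fold over the higher MUTYH knockout clone, and every knockout library was above both untreated WT libraries.

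On the log2 scale DHRS2 differed from WT by 3.03 ± 0.36 (SE, n = 2 per group) in DKO, by 1.02 ± 0.35 in the MUTYH knockout and by 0.33 ± 0.36 in the OGG1 knockout. DKO differed from the OGG1 knockout by 2.69 ± 0.36 and from the MUTYH knockout by 2.005 ± 0.34. These comparisons share libraries, the first 3 the WT libraries and the rest the DKO libraries. In the MUTYH knockout the difference rested mainly on clone 7, since it was 0.55 without clone 7 and 1.38 without clone 8. The DKO difference from WT ranged from 2.88 to 3.18 over all alternative settings, which include leaving out each library. The relative counting error (coefficient of variation) was 18.0% for the 31 reads of WT clone 2 and 5.74% for the 304 reads of DKO clone 4.

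After H2O2, DHRS2 had 384 reads in WT clone 2 (17.5 CPM) and 209 in WT clone 11 (9.20 CPM). Both treated libraries were above all untreated libraries other than those of DKO, and the 2 DKO libraries lay between them. Clone 2 rose 12.7-fold and clone 11 rose 5.46-fold over its own untreated library. The treated mean was 13.3 ± 5.84 CPM (SD, n = 2), against 1.53 ± 0.22 in untreated WT and 12.5 ± 1.61 in DKO. The log2 difference was 3.11 ± 0.40 (SE), or 3.05 ± 0.29 with clone as a replicate block, and fell to 2.56 without treated clone 2. No knockout was treated, so the response of DHRS2 to H2O2 without either glycosylase was not measured. In bulk RNA, a higher level in all cells and a high level in some cells cannot be told apart.

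**Figure D2:**
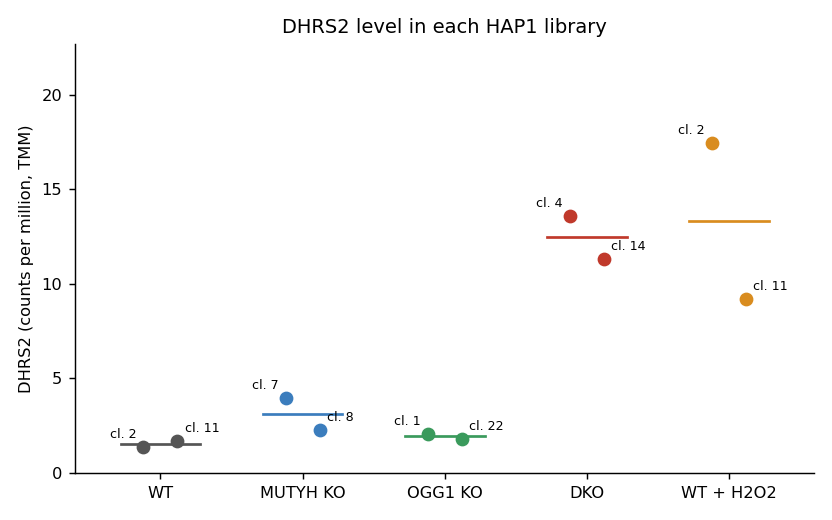
DHRS2 in CPM (y axis, from 0) in each of the 10 HAP1 libraries, grouped on the x axis by genotype and treatment, with each point 1 clone (cl.) and each line the mean of 2 clones. The 4 points of DKO and H2O2-treated WT lie between 9.20 and 17.5 CPM, and the 6 other points between 1.38 and 3.97 CPM.

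Of the other 8 genes, 1 was called in a single genotype comparison. By the criterion of the study, unadjusted P ≤ 0.05 together with a log2 fold change above 1 or below -1, DHRS12 was the gene called, in the MUTYH knockout against WT, where 1.19% of all 17881 genes tested were called. In the OGG1 knockout against WT 0 of 8 were called (1.67% of all genes), in DKO against WT 0 of 8 (1.77%), in DKO against the OGG1 knockout 0 of 8 (1.44%) and in DKO against the MUTYH knockout 0 of 8 (1.99%). None of the 8 had an adjusted p of at most 0.05 in edgeR's quasi-likelihood test with Benjamini-Hochberg adjustment. The smallest adjusted p in any genotype comparison was 0.999. DHRS12 in the MUTYH knockout was the only case with an unadjusted P of at most 0.05, beside 308 of all 17881 genes in that comparison. The median log2 fold change of the 8 against WT was 0.11 in the MUTYH knockout, 0.07 in the OGG1 knockout and 0.05 in DKO, beside 0.01, 0.01 and 0.00 over all genes tested. In DKO, where DHRS2 differed most, the 8 ranged from -0.29 to 0.41.

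After H2O2 again 0 of the 8 were called, beside 1.75% of 16997 genes. With clone as a block 0 of 8 were called, beside 2.78% of all genes. DHRS7 alone of the 8 had an unadjusted P of at most 0.05 in the blocked fit, beside 3419 of all 16997 genes. That count is thus no result about DHRS7, and 0 of 8 passed after adjustment in either fit. The 8 had a median log2 fold change of -0.21, beside 0.00 over all genes, with 6 below 0 and 2 above. They ranged from -0.45 to 0.55, where DHRS2 stood at 3.11.

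**Figure D3:**
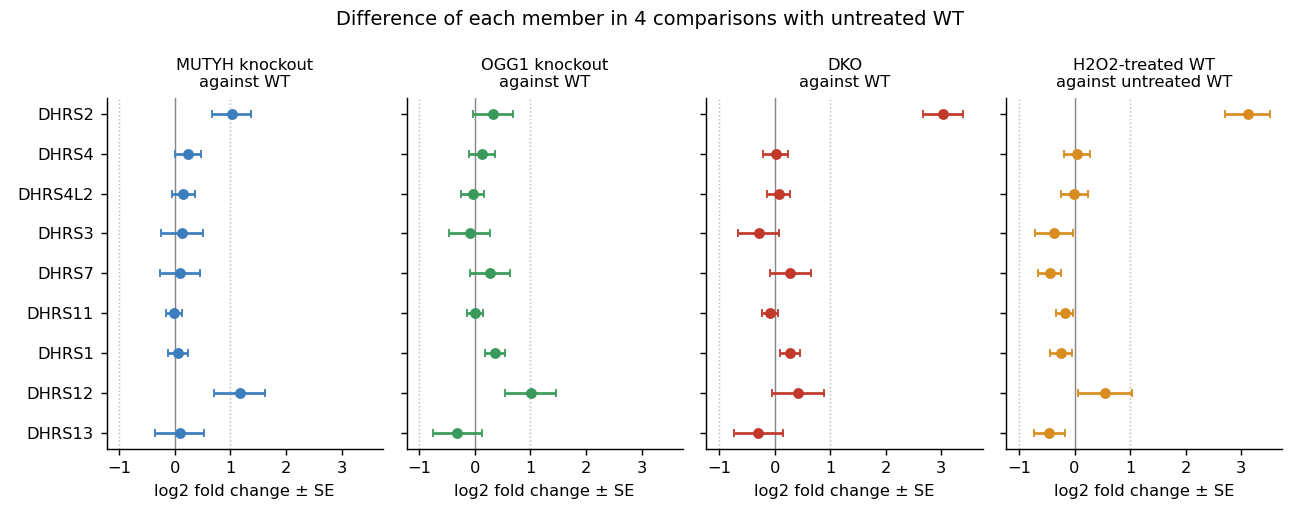
Log2 fold change with SE (x axis, bars ± SE) of the 9 genes (y axis) in 3 knockouts and in H2O2-treated WT, each against untreated WT, with dotted lines at -1 and 1. DHRS2 stands at 3.03 in DKO and 3.11 after H2O2, while the other 8 genes lie between -0.45 and 1.17 in the 4 panels.

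DHRS4 and DHRS4L2 are the closest relatives of each other among the 9. Their canonical transcripts were identical at 98.2% of aligned bases (1235 of 1258), and 29.7% of the 100-base stretches of DHRS4 and 31.3% of those of DHRS4L2 occurred in another gene, so that their reads may have been divided in more than 1 way. DHRS2 shared none. DHRS4 had 9.89 and 12.4 CPM in WT (clones 2, 11), 12.6 and 13.7 in the MUTYH knockout (clones 7, 8), 13.3 and 11.1 in the OGG1 knockout (clones 1, 22), 9.85 and 12.7 in DKO (clones 4, 14), and 10.41 and 12.7 in treated clones 2 and 11. The DKO and treated values overlapped with those of the other libraries. The log2 fold change of DHRS4 was 0.02 ± 0.23 (SE) in DKO and 0.05 ± 0.24 after H2O2, and that of DHRS4L2 was 0.08 ± 0.21 and -0.00 ± 0.24. DHRS4L2 ranged from 9.36 CPM in untreated WT clone 2 to 12.1 CPM in MUTYH knockout clone 7. The ratio of DHRS4L2 to DHRS4 stayed between 0.80 and 1.09 in the 10 libraries.

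DHRS3, the retinaldehyde reductase, differed more between the clones of WT, the OGG1 knockout and DKO than between genotype means (16.7 to 22.4 CPM). The MUTYH knockout clones differed less than those means. DHRS3 had 14.8 and 26.0 CPM in WT (clones 2, 11), 24.7 and 20.2 in the MUTYH knockout (clones 7, 8), 24.2 and 14.03 in the OGG1 knockout (clones 1, 22), and 19.7 and 13.6 in DKO (clones 4, 14). The 2 WT clones spanned the values of all knockouts but DKO clone 14 and OGG1 knockout clone 22, which were slightly lower. After H2O2 the WT clones moved in opposite directions, to 18.9 CPM in clone 2 (1.28-fold) and to 13.03 CPM in clone 11 (0.50-fold), and the log2 difference was -0.36 ± 0.34 (SE). For context, a list of 11 genes of retinaldehyde and retinoic acid handling was counted, of which 10 were tested. ALDH1A2, which makes retinoic acid from retinaldehyde, was called lower in the MUTYH knockout, the OGG1 knockout and DKO. Untreated WT clone 2 had 61.4 CPM, against 3.06 for clone 11, and the knockouts had 0.09 to 2.86, so that the size of the difference came largely from WT clone 2, though WT clone 11 was also above every knockout library. RARB, a retinoic acid receptor, was likewise called lower in the OGG1 knockout and DKO, and lower after H2O2 with clone as a block, and had 4.48 CPM in WT clone 2 and 0.40 in WT clone 11. After H2O2 the clones moved in opposite directions for RARB, 0.33-fold in clone 2 and 1.325-fold in clone 11. CRABP2, which binds retinoic acid in the cytosol, was called higher in the OGG1 knockout (27.1 and 27.0 CPM against 7.50 and 9.66 in WT). None of these had an adjusted p under 0.05 in edgeR's quasi-likelihood test (0.999 or above in the genotype comparisons).

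DHRS7, a membrane-bound reductase of the endoplasmic reticulum, had the highest mean of the 9 per transcript length over the untreated libraries, although DHRS11 was above it in 1 clone of each genotype (WT 2, MUTYH 8, OGG1 22 and DKO 14) and in both treated libraries. It had 29.5 and 40.8 CPM in WT (clones 2, 11), 48.6 and 26.4 in the MUTYH knockout (clones 7, 8), 50.8 and 34.2 in the OGG1 knockout (clones 1, 22), and 50.6 and 34.5 in DKO (clones 4, 14). After H2O2 it had 25.5 and 26.2 CPM in clones 2 and 11, below every untreated library. The log2 difference from untreated WT was -0.45 ± 0.20 (SE, edgeR's quasi-likelihood test, adjusted p = 0.638) and -0.43 ± 0.15 with clone as a block (adjusted p = 0.138), neither of which passed. The treated-to-untreated ratio was 0.87 in clone 2 and 0.64 in clone 11.

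DHRS11, which reduces steroids and other carbonyl compounds, had the narrowest range of the 9, from 25.9 to 31.0 CPM over 570 to 698 reads. Both treated libraries (25.9 and 26.0 CPM) lay below every untreated library (27.0 to 31.0 CPM), a log2 difference from untreated WT of -0.18 ± 0.15 (SE) that did not pass the test (adjusted p = 0.774 in edgeR's quasi-likelihood test). DHRS1, a less studied member of the family, had 13.4 and 12.98 CPM in WT (clones 2, 11), 13.67 and 13.74 in the MUTYH knockout (clones 7, 8), 15.1 and 18.8 in the OGG1 knockout (clones 1, 22), 15.3 and 16.4 in DKO (clones 4, 14), and 10.5 and 11.8 in the treated clones. Its libraries of all 3 knockouts were above both WT libraries and its treated libraries below them. For the MUTYH knockout the gap was small, with 296 and 310 reads (clones 7, 8) against 301 and 293 in WT (clones 2, 11). The relative counting error of these libraries was 5.68% to 5.84%. The log2 differences were 0.05 ± 0.18 (SE) in the MUTYH knockout, 0.37 ± 0.18 in the OGG1 knockout, 0.27 ± 0.18 in DKO and -0.24 ± 0.20 after H2O2, and none passed the test.

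DHRS12, whose substrate is not well known, was near the limit of detection, with 9 to 30 reads per library, which put its relative counting error at 18.3% to 33.3%. It had 0.67 and 0.40 CPM in WT (clones 2, 11), 1.39 and 1.02 in the MUTYH knockout (clones 7, 8), 0.95 and 1.20 in the OGG1 knockout (clones 1, 22), 0.54 and 0.88 in DKO (clones 4, 14), and 0.91 and 0.66 in treated clones 2 and 11. Libraries of both single knockouts were above both WT libraries, while DKO libraries overlapped with them. The log2 difference was 1.17 ± 0.45 (SE) in the MUTYH knockout (adjusted p = 1.00 in edgeR's quasi-likelihood test) and 1.01 ± 0.46 in the OGG1 knockout (adjusted p = 0.999 in edgeR's quasi-likelihood test). The call in the MUTYH knockout was lost without WT clone 11 (0.85) or without MUTYH knockout clone 7 (0.92). Of the 100-base stretches of its canonical transcript, 36.5% were shared with an overlapping gene model on the same strand (ENSG00000285444), so that its count is uncertain for this reason too.

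DHRS13, a further member of little-known function, had 8.74 and 13.1 CPM in WT (clones 2, 11), 14.4 and 8.87 in the MUTYH knockout (clones 7, 8), 11.97 and 5.59 in the OGG1 knockout (clones 1, 22), and 10.7 and 7.14 in DKO (clones 4, 14). Here the 2 clones of each genotype differed more than the genotype means, which ran from 8.78 to 11.6 CPM. After H2O2 it had 8.68 and 7.35 CPM in clones 2 and 11, with a treated-to-untreated ratio of 0.99 in clone 2 and 0.56 in clone 11.

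**Figure D4:**
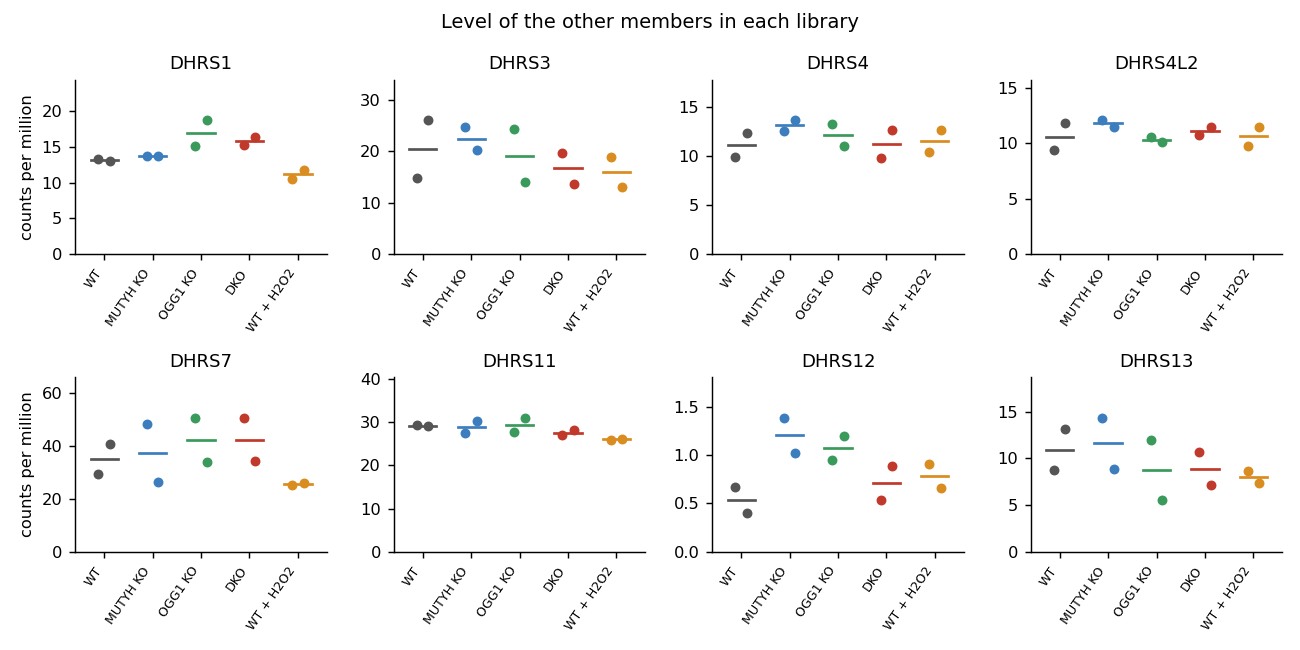
CPM (y axes, each from 0 and on its own scale) of the 8 genes other than DHRS2 in the 10 libraries, with points for clones and lines for the mean of 2 clones, by genotype and treatment (x axes). For DHRS7 and DHRS13, and for DHRS3 outside the MUTYH knockout, the 2 clones of a genotype lie far apart, while DHRS11 stays between 25.9 and 31.0 CPM.

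The clones of a genotype were also compared across genotypes. Log2 CPM of the 8 untreated libraries was centred within each genotype, which removed differences between genotypes. The first principal component held 49.9% of the remaining variance, that between clones of a genotype. With 2 clones per genotype the centred scores are equal and opposite by construction, so the component sets only which clones are put on the same side. Side A held clone 2 of WT, clone 8 of the MUTYH knockout, clone 22 of the OGG1 knockout and clone 14 of DKO, and side B held the other clone of each. The labels name no batch that matches this split. DHRS7 had 26.4 to 34.5 CPM on side A and 40.8 to 50.8 on side B, and DHRS13 had 5.59 to 8.87 on side A and 10.7 to 14.4 on side B, with no overlap in either. DHRS3 was lower on side A in all 4 genotypes, with means of 15.7 and 23.7 CPM. DHRS2 was also lower on side A in all 4 genotypes, while its log2 difference between DKO and WT was 3.03 ± 0.26 (SE) with the split as a block. DHRS4-AS1, the antisense partner of DHRS4, went the other way, with 18.9 to 20.2 CPM on side A and 10.6 to 12.2 on side B. DHRS4 itself overlapped between the sides. DHRS1 and DHRS11 were also higher on side A in all 4 genotypes, with overlap between the sides. The share of all genes with the same direction in all 4 genotypes was not counted. The sides did not overlap for 2 of the 9 genes (22.2%), beside 5222 of the 17881 genes tested (29.2%), a share near that of all genes, and the sides were drawn from these same libraries. With the split as a block, DHRS12 was called in the OGG1 knockout as well (1.02 ± 0.43, SE), where the main fit gave 1.01 without a call. The block was drawn from the spread between these same clones, so this call is not separate support. The share of all genes called with this block is not given here.

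**Figure D5:**
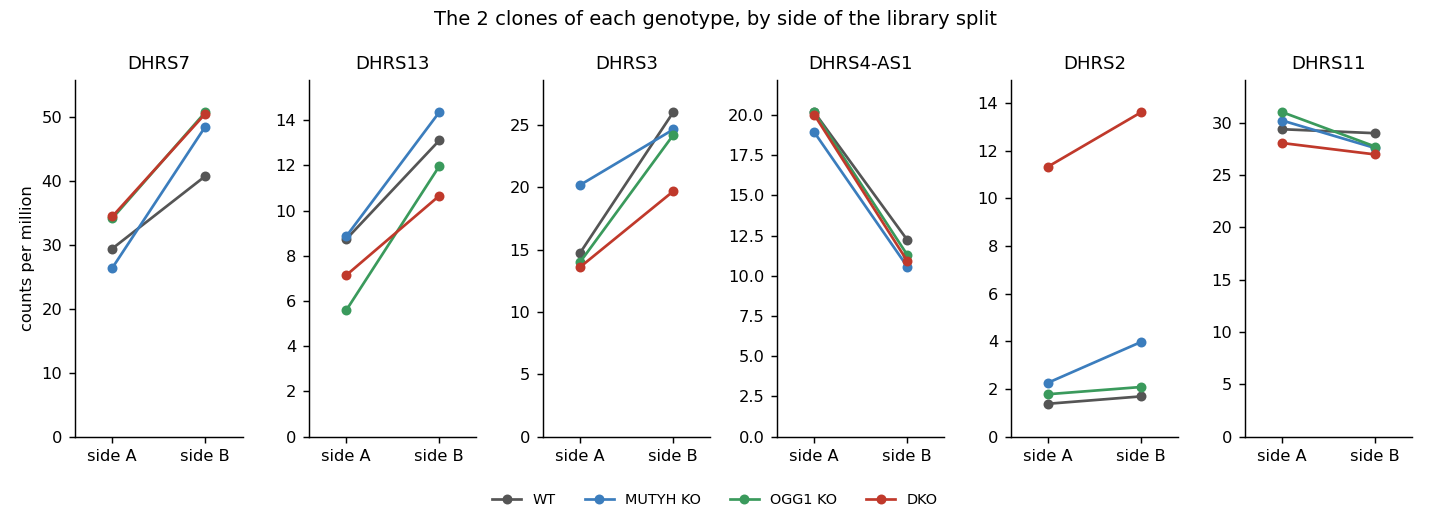
CPM (y axes, from 0) in the clone of each genotype on side A and on side B of the library split (x axes), with 1 line per genotype. DHRS7 and DHRS13 lie higher and DHRS4-AS1 lower on side B in all 4 genotypes, whereas for DHRS2 the DKO line lies above the others on both sides.

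Levels were compared between genes only per kilobase of the canonical transcript. Over the 8 untreated libraries DHRS7 had 20.1 ± 4.97 CPM per kilobase (SD), DHRS11 19.0 ± 0.93, DHRS1 10.5 ± 1.37, DHRS4 9.44 ± 1.175, DHRS3 8.93 ± 2.30, DHRS4L2 8.71 ± 0.74, DHRS13 5.21 ± 1.56 and DHRS12 0.79 ± 0.30. DHRS2 had 2.84 ± 2.90, with 0.82 in its lowest and 8.12 in its highest library, so that its higher DKO clone fell in the range of DHRS4L2 (7.44 to 9.62). The only neighbours in this order whose ranges did not overlap were DHRS11, at 17.8 or more, and DHRS1, at 13.2 or less. The order depends on the transcript assumed. The length of all exons combined was used over all 10 libraries, treated ones included. With it DHRS7 remained first, DHRS2 eighth and DHRS12 ninth, while DHRS1 moved from the third place to the seventh.

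Further SDR genes were counted from a list of 46, among them other DHRS-named genes, retinol dehydrogenases and hydroxysteroid dehydrogenases. In the genotype fit 37 were tested. HSD17B14, a hydroxysteroid dehydrogenase, was called higher in the OGG1 knockout against WT (7.50 and 3.11 CPM in clones 1 and 22 against 2.22 and 2.13 in WT) and lower in DKO against the OGG1 knockout and against the MUTYH knockout (1.25 and 2.03 CPM in clones 4 and 14 of DKO). It was the only one called in these comparisons, 0 were called in the MUTYH knockout or in DKO against WT, and 0 of 35 were called after H2O2, counts near the background of 1.19% to 1.99% of all genes called in these comparisons. None passed after adjustment. The call in the OGG1 knockout was lost without either WT clone, that against the OGG1 knockout without OGG1 knockout clone 1, and that against the MUTYH knockout without MUTYH knockout clone 8 or DKO clone 4. The median log2 fold change of the list was -0.01 in DKO and -0.05 after H2O2. DHRS7B, DHRSX and BDH2, which are other SDRs, ranged from 10.2 to 25.7 CPM and were not called in any comparison.

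Genes tied to DHRS2 by earlier knowledge were read beside it. MDM2 was called in none of the 6 comparisons. It had 76.7 and 101 CPM in DKO (clones 4, 14) against 89.6 and 77.5 in untreated WT clones 2 and 11, and 243 and 90.5 CPM in treated clones 2 and 11. CDKN1A, which encodes the cell cycle inhibitor p21, was called higher after H2O2, with 195 and 18.9 CPM in treated clones 2 and 11 against 7.85 and 3.94 untreated (log2 fold change 3.65 ± 0.38, SE, with clone as a block, adjusted p = 0.000503 in edgeR's quasi-likelihood test, and 0.638 without the block). The blocked fit left 1 residual degree of freedom, and 437 of all 16997 genes in it had an adjusted p of at most 0.05. Both MDM2 and CDKN1A, like DHRS2, were higher in treated clone 2 than in treated clone 11. In DKO, where DHRS2 was high in both clones, CDKN1A had 7.34 and 17.4 CPM in clones 4 and 14 and was not called. It was called with the library split as a block (1.02 ± 0.33, SE, adjusted p = 0.596 in edgeR's quasi-likelihood test). That block was drawn from these same libraries. CDKN1A had 3.69 and 19.3 CPM in the MUTYH knockout (clones 7, 8) and 3.89 and 8.53 in the OGG1 knockout (clones 1, 22). Its highest untreated value was thus in MUTYH knockout clone 8, where DHRS2 had 2.26 CPM. CDKN1A had 7.85 to 19.3 CPM on side A of the library split and 3.69 to 7.34 on side B, without overlap. MYB was called lower in the MUTYH knockout and in the OGG1 knockout, and neither call passed after adjustment. It had 29.98 CPM in WT clone 2 and 9.61 in WT clone 11, and 14.7 and 17.7 CPM in DKO (clones 4, 14). The MUTYH knockout had 5.31 and 9.13 CPM (clones 7, 8) and the OGG1 knockout 7.41 and 9.77 (clones 1, 22). The size of the difference thus came largely from WT clone 2, and OGG1 knockout clone 22 was above WT clone 11.

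The genes most like DHRS2 in pattern were ranked by Pearson r of log2 CPM over the 10 libraries among 14764 genes. DDX27 (0.94), IDH3B (0.94), ELOA (0.93), GDF15 (0.90) and EIF3C (0.89) came first, and over the 8 untreated libraries alone r was 0.82 to 0.92 for these 5. The libraries of a clone share their origin, and the ranking rests on the gap between 4 high and 6 low libraries. The first 3 and EIF3C ranged narrowly, DDX27 for example from 91.8 to 139 CPM, whereas GDF15, a secreted stress-induced cytokine of the TGF-beta family, varied over a wider range than DHRS2. GDF15 had 0.44 and 0.35 CPM in WT (clones 2, 11), 0.55 and 0.49 in the MUTYH knockout (clones 7, 8), 0.86 and 1.33 in the OGG1 knockout (clones 1, 22), 6.36 and 4.45 in DKO (clones 4, 14), and 24.4 and 12.8 in treated clones 2 and 11. Among the 9 genes, DHRS11 had the lowest r with DHRS2 (-0.79 over 10 and -0.67 over 8 libraries), and the others that were ranked lay between -0.31 and 0.08 over 10 libraries.

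None of the 6 tested genes next to DHRS2 on chromosome 14 was called. Between 1.19% and 1.99% of all genes were called in these comparisons, so no call among 6 genes is near that share. Within 250 kb of the gene, 12 annotated genes were in the tables and 6 were tested, all on the lower-coordinate side. JPH4 was not tested after H2O2. The nearest tested were JPH4, with 0.58 and 1.24 CPM in DKO (clones 4, 14) against 0.35 and 0.62 in WT, and AP1G2, with 36.1 and 26.1 CPM in DKO against 34.2 and 35.9 in WT. AP1G2, an adaptor subunit of vesicle transport, had 22.6 and 21.1 CPM in treated clones 2 and 11, and its log2 difference of -0.69 ± 0.14 (SE) with clone as a block had an adjusted p of 0.0258 in edgeR's quasi-likelihood test but stayed within the limit of 1. In that blocked fit 437 of all 16997 genes had an adjusted p of at most 0.05. DHRS4 and DHRS4L2, farther along the same chromosome, are described above.

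The total count per library ranged from 22225091 to 22674964. As a check of the cell type, 7 markers of blood cells and their progenitors were read, since HAP1 derives from a leukaemia line. Their sum ranged from 2.76 to 19.1 CPM, of which KIT made up the largest part, and 5 of the 7 stayed at 1 CPM or less in every library. PTPRC, the general marker of white blood cells, had 0 to 3 reads per library. KIT, a receptor of blood progenitors, was called lower in the OGG1 knockout (1.99 and 3.68 CPM against 11.6 and 12.01 in WT (clones 2, 11)) and had 8.33 and 3.92 CPM in DKO (clones 4, 14). CD34, another progenitor marker, went the other way and was called higher in the OGG1 knockout and in DKO against WT and in DKO against the MUTYH knockout, with 0.13 and 0.18 CPM in WT (clones 2, 11), 0.41 and 1.02 in the OGG1 knockout (clones 1, 22) and 1.03 and 0.66 in DKO (clones 4, 14). The part of these markers in the values of the 9 genes was not tested.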

How the data were processed

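RNA-seq libraries of 10 HAP1 cultures were used. Per the methods of the study and the submitters' processing notes, reads were aligned to GRCh38 with HISAT2 2.2.1 and counted per gene with featureCounts of Rsubread against Ensembl annotation. The deposited values are raw read counts per gene, which the authors had not normalised. Strand setting and treatment of multi-mapped reads are not given in the sources used here. Both tables hold the untreated WT libraries with identical counts (2 columns), which were used once, and 0 columns remained unmapped. Reads are not independent molecules, so counting errors cover counting error only.

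Counts were analysed in R 4.3.3 with edgeR 4.0.16: TMM factors, filterByExpr, and the quasi-likelihood F test (legacy=TRUE, two-sided), in 1 fit of the 8 untreated libraries (17881 genes) and 1 fit of the 4 WT libraries (16997 genes). P values were adjusted by Benjamini-Hochberg over all genes of a fit. A called gene met the criterion of the study, unadjusted P ≤ 0.05 with a log2 fold change above 1 or below -1. SEs were derived from the F statistic, and log2 CPM used a prior count of 2. The scripts were tested on simulated data. With 2 clones per group, p-values measure only the spread between these clones.

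Treated and untreated WT libraries are paired by clone: across 16997 genes the difference between the clones in treated cells correlated with that in untreated cells (r = 0.681). The methods name no block, so both fits are used. The fit with clone as a block left 1 residual degree of freedom, and the fit without it left 2. After adjustment 437 genes passed with the block and 0 without it. No library pair agreed within sampling noise (smallest chi-square per degree of freedom 12.2 over 45 pairs).

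GENCODE v44 on GRCh38 gave positions and lengths; 38754 of 59453 symbols (65.2%) matched. Lists and genes were chosen with earlier results of these data known. From the lists, genes called in any comparison with a mean of at least 1 CPM in either group were named, and for likeness the 5 genes of highest r. MDM2, DHRS7B, DHRSX, BDH2, CD34 and DHRS4-AS1 fall outside this rule and were chosen after their values were seen. A further gene of the lists is not reported here. Alternatives were DESeq2 1.42.0 size factors and Wald test, edgeR 4 quasi-likelihood, 2 filters, other sets of libraries, blocks, and leaving out each library.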

Additional observations from a re-analysis of the deposited data

How the results depend on the processing

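Of 633 values recomputed under alternatives, 624 kept their direction and side of the threshold (or stayed within the spread), 3 were weaker, 1 was stronger and 5 moved, and 0 reversed. For 26 of the 54 pairs of gene and comparison the sign changed under at least 1 alternative. None of these was called, and the largest main log2 difference among them was 0.38. DHRS2 kept its sign in all 6 comparisons under every alternative, from 2.88 to 3.18 in DKO and from 2.56 to 3.50 after H2O2. It was chosen for its high values in these same libraries, so these ranges are a description and not support.

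The count of the 8 other genes called in the MUTYH knockout was 1 and became 0 with at least 10 counts in every library or with the DESeq2 Wald test, and ranged from 0 to 1 when each library was left out. In the OGG1 knockout it was 0 and became 1 with the library split as a block, which was drawn from these same libraries. Of the SDR list, 1 gene was called in the OGG1 knockout and 1 in DKO against the OGG1 knockout, with a range of 0 to 1 when each library was left out. In DKO against the MUTYH knockout 1 was called, 2 without a filter and 0 to 2 when each library was left out.

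Over all genes, the calls numbered 212, 299 and 317 in the MUTYH knockout, the OGG1 knockout and DKO against WT, 258 and 355 in DKO against the OGG1 and the MUTYH knockout and 298 after H2O2. Without a filter they were 532, 692, 705, 552, 669 and 510, and with at least 10 counts in every library 86, 123, 134, 111, 151 and 195. Against WT, leaving out WT clone 11 gave 702, 806 and 673 calls in the MUTYH knockout, the OGG1 knockout and DKO, and leaving out WT clone 2 gave 117 and 165 in the first 2. Without MUTYH knockout clone 8 there were 457, without OGG1 knockout clone 1 there were 597, and after H2O2 there were 497 without untreated WT clone 2. The DESeq2 Wald test gave 154 calls after H2O2, and the paired fit with clone as a replicate block gave 473, among them 0 of the 8 other genes. The causes were not tested. DHRS12, with 9 to 30 reads, is limited by depth.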

Other observations

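Of the 9 genes, 6 had a lower treated-to-untreated ratio in WT clone 11 than in WT clone 2, and all 6 were higher in untreated clone 11. The untreated level is the denominator of the ratio, so both statements are linked by construction. The share over all genes was not counted. For DHRS3, DHRS7 and DHRS13 the ratios were 0.50, 0.64 and 0.56 in clone 11 against 1.28, 0.87 and 0.99 in clone 2. DHRS4 (1.03 against 1.05) and DHRS4L2 (0.97 against 1.04) differed little in ratio between the clones. For DHRS7 (25.5 and 26.2 CPM in clones 2 and 11) and DHRS13 (8.68 and 7.35 CPM) the treated clones lay closer together than the untreated ones, whereas for DHRS2 (17.5 and 9.20 CPM) they lay farther apart. DHRS4-AS1, which had 20.2 and 12.2 CPM in untreated clones 2 and 11, had 16.5 and 17.0 CPM in the treated ones. With 1 library per clone and treatment, this difference between clones was not tested.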
